A study of Rattus norvegicus with 48 samples.

Results

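Homeostatic microglia genes are the genes by which resting microglia, the resident macrophages of the brain, are told from other cells. The 9 genes described here are P2ry12, P2ry13, Gpr34, Cx3cr1, Csf1r, Tmem119, Siglech, Sall1 and Olfml3. They were taken by symbol from a table of 30211 genes, and all 9 symbols were found. A gene was tested when it reached 0.5 CPM (read counts scaled to library size by the authors) in at least 3 of the 48 libraries, whichever group those libraries belonged to. This left 15890 genes, among them 8 of the 9. Siglech, which encodes a sialic acid-binding lectin of rodent microglia and plasmacytoid dendritic cells, was listed at 0 in all 48 libraries and was not tested. A count of 0 allows up to 3 reads, which is 0.1003 to 0.175 CPM at the depth of these libraries (counting error only).

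The libraries were RNA-seq of primary cortical cultures from 18-day Sprague-Dawley rat fetuses, grown for 21 days in vitro, in 16 groups of 3 libraries. Cultures were left untreated (Control) or were given cocaine (25 µM, 24 h), the HIV-1 protein Tat (6 ng/mL, 48 h), or Tat and then cocaine (Tat-Cocaine). In the other 12 groups a compound was given alone, together with Tat, or together with Tat before cocaine: Amlexanox (25 µM), an inhibitor of the kinases Tbk1 and Ikbke, Tazemetostat (3 µM), an inhibitor of the histone methyltransferase Ezh2, 4-octyl itaconate (4OI, 250 µM), a cell-permeable ester of the metabolite itaconate, or Senicapoc (1 µM), a blocker of the calcium-activated potassium channel Kcnn4. Compounds were present for the 48 h of Tat or its control, and the 24 h of cocaine or its control came after. The labels do not state whether the 3 libraries of a group came from separate dissections, so p-values measure the spread between these libraries only, which may be partly technical.

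Microglia settle in the brain early in development and remain there as a self-renewing population that depends on signaling through Csf1r. In the healthy brain they carry receptors with which they sense nucleotides, lipids and chemokines released by neurons and injured cells, and this sensing state is held by the transcription factor Sall1 and by transforming growth factor beta. When microglia meet inflammatory stimuli, P2ry12 and several of its companions are known to be turned down in many settings, which is why these genes are used to describe the state of microglia as well as their presence.

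Promoter sequences are shown for 3 members that behaved differently from one another below: Gpr34 and P2ry13, whose levels followed the level of general myeloid genes between libraries of a group, and Olfml3, whose level did not. Each is the 250 bases before the start of the gene from RefSeq (rat assembly GRCr8, minus strand, 5′ to 3′), and 6 of the 9 members had an entry. Capitals mark the motifs that were searched on both strands, namely GAGGAA (the core bound by Spi1, the PU box factor of myeloid cells), GGGCGG (the GC box) and TATAAA (the TATA box), so that a motif on the opposite strand appears as its reverse complement.
Gpr34 (chrX:11785837-11786086): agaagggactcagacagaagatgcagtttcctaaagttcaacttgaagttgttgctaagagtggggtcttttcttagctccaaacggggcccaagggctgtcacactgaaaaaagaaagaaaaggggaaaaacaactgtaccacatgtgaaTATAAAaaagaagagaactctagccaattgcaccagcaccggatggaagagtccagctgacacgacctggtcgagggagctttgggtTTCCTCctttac
P2ry13 (chr2:145622785-145623034): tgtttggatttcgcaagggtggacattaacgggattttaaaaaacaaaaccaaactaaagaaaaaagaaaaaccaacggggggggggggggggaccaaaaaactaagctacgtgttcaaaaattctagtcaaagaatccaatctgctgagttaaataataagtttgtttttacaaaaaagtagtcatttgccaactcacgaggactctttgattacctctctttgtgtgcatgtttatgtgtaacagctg
Olfml3 (chr2:193935495-193935744): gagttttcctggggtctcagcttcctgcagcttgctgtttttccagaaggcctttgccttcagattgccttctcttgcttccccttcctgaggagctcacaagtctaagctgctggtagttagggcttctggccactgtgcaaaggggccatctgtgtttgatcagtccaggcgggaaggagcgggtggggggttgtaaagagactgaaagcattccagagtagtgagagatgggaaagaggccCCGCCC
The Gpr34 window held a TATAAA and, on the opposite strand, a GAGGAA, the P2ry13 window held none of the 3 motifs, and the Olfml3 window ended in a GC box on the opposite strand. GAGGAA was also found in the Siglech and Csf1r windows, making 3 of 6 members, against 23.3% of 33469 promoters of the same length. TATAAA was found in 12.9% and GGGCGG in 30.5% of those promoters, and each in 1 of the 6 members. These are matches of letters in a window and not binding sites. The assembly differs from the one the deposited values rest on, and the values themselves carry no coordinates.

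About 17515000 to 29057000 reads per library fell on genes (median 22370000, estimated from the value of 1 read), so that 0.5 CPM corresponds to 8.58 to 14.96 reads. The labels give the cell type as neuron, yet the cultures were mixed. All 12 pan-myeloid genes (genes shared by microglia, other macrophages and monocytes, such as Aif1, Itgam and Spi1) were above 0 in every library, the lowest being Ikzf1 at 2.71 CPM, and their summed level per library ran from 351 to 3338 CPM. The 14 neuron markers summed to 1348 to 5973 CPM and the 10 astrocyte markers to 5863 to 14424 CPM. All 12 listed markers of macrophages of the brain borders passed the filter, at unlike levels. Mrc1 ran from 26.9 to 433 CPM and Stab1 from 48.2 to 1261 CPM. Cd163, Cd209f, F13a1 and Clec10a fell to between 0.0496 and 0.149 CPM in their lowest libraries. Whether such macrophages were present in every library was not tested. None of 6 T and B cell markers and 4 of the 7 blood monocyte and neutrophil markers found (S100a8 and Plac8 among them) passed the filter. Ly6c was at 0 throughout, and Mpo and S100a9 did not exceed 0.255 CPM. The monocyte marker Ccr2 was listed too but had no entry, so it could not be examined. In such bulk samples, fewer cells of a type and less RNA per cell cannot be told apart.

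The level of each gene across the 16 groups is given next as the mean of 3 libraries, without a test, and levels are not compared between genes because CPM does not account for transcript length. P2ry12, which encodes an ADP receptor that guides microglial processes toward injury, ran from 6.51 CPM in Tat-Cocaine-4OI to 25.0 CPM in Tat-Cocaine-Tazemetostat, a ratio of 3.85. P2ry13, a neighboring ADP receptor gene, ran from 1.66 CPM in Tat-4OI to 6.61 CPM in Tat-Cocaine-Tazemetostat, a ratio of 3.98. Gpr34, which encodes a receptor for lysophosphatidylserine, ran from 17.2 CPM in Tat-Cocaine-4OI to 69.7 CPM in Cocaine, a ratio of 4.06. The 3 nucleotide and lipid receptor genes thus shared their low end in cultures that held both Tat and 4OI.

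Cx3cr1, which encodes the receptor for the neuronal chemokine Cx3cl1, ran from 21.2 CPM in Senicapoc to 90.5 CPM in Tat-Cocaine-Tazemetostat, a ratio of 4.27. Csf1r, the receptor for the survival factors Csf1 and Il34, ran from 151 CPM in Tat-Cocaine-4OI to 667 CPM in Tat-Cocaine-Tazemetostat, a ratio of 4.42. Tmem119, a membrane protein that marks microglia and whose role in them is little known, ran from 7.70 CPM in Senicapoc to 38.9 CPM in Tat-Cocaine-Tazemetostat, a ratio of 5.05. Tat-Cocaine-Tazemetostat was therefore the highest group for 5 of the 8 genes.

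Olfml3, which encodes a secreted matrix glycoprotein, ran from 8.79 CPM in Amlexanox to 48.9 CPM in Tat-Cocaine-Senicapoc, a ratio of 5.56. Sall1, the transcription factor that holds microglial identity and that is also known from neural progenitors, had the narrowest range, from 38.4 CPM in Amlexanox to 65.2 CPM in Tat-Cocaine-Amlexanox, a ratio of 1.70. The order of groups was not resolved between neighbors, since the libraries of all 15 pairs of adjacent groups overlapped for each of the 8 genes. The SD between libraries of one group, on the log2(CPM + 0.5) scale used for all tests, was 0.22 for Sall1, 0.50 for Csf1r and 0.58 to 0.75 for the other 6 genes.

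**Figure D1:**
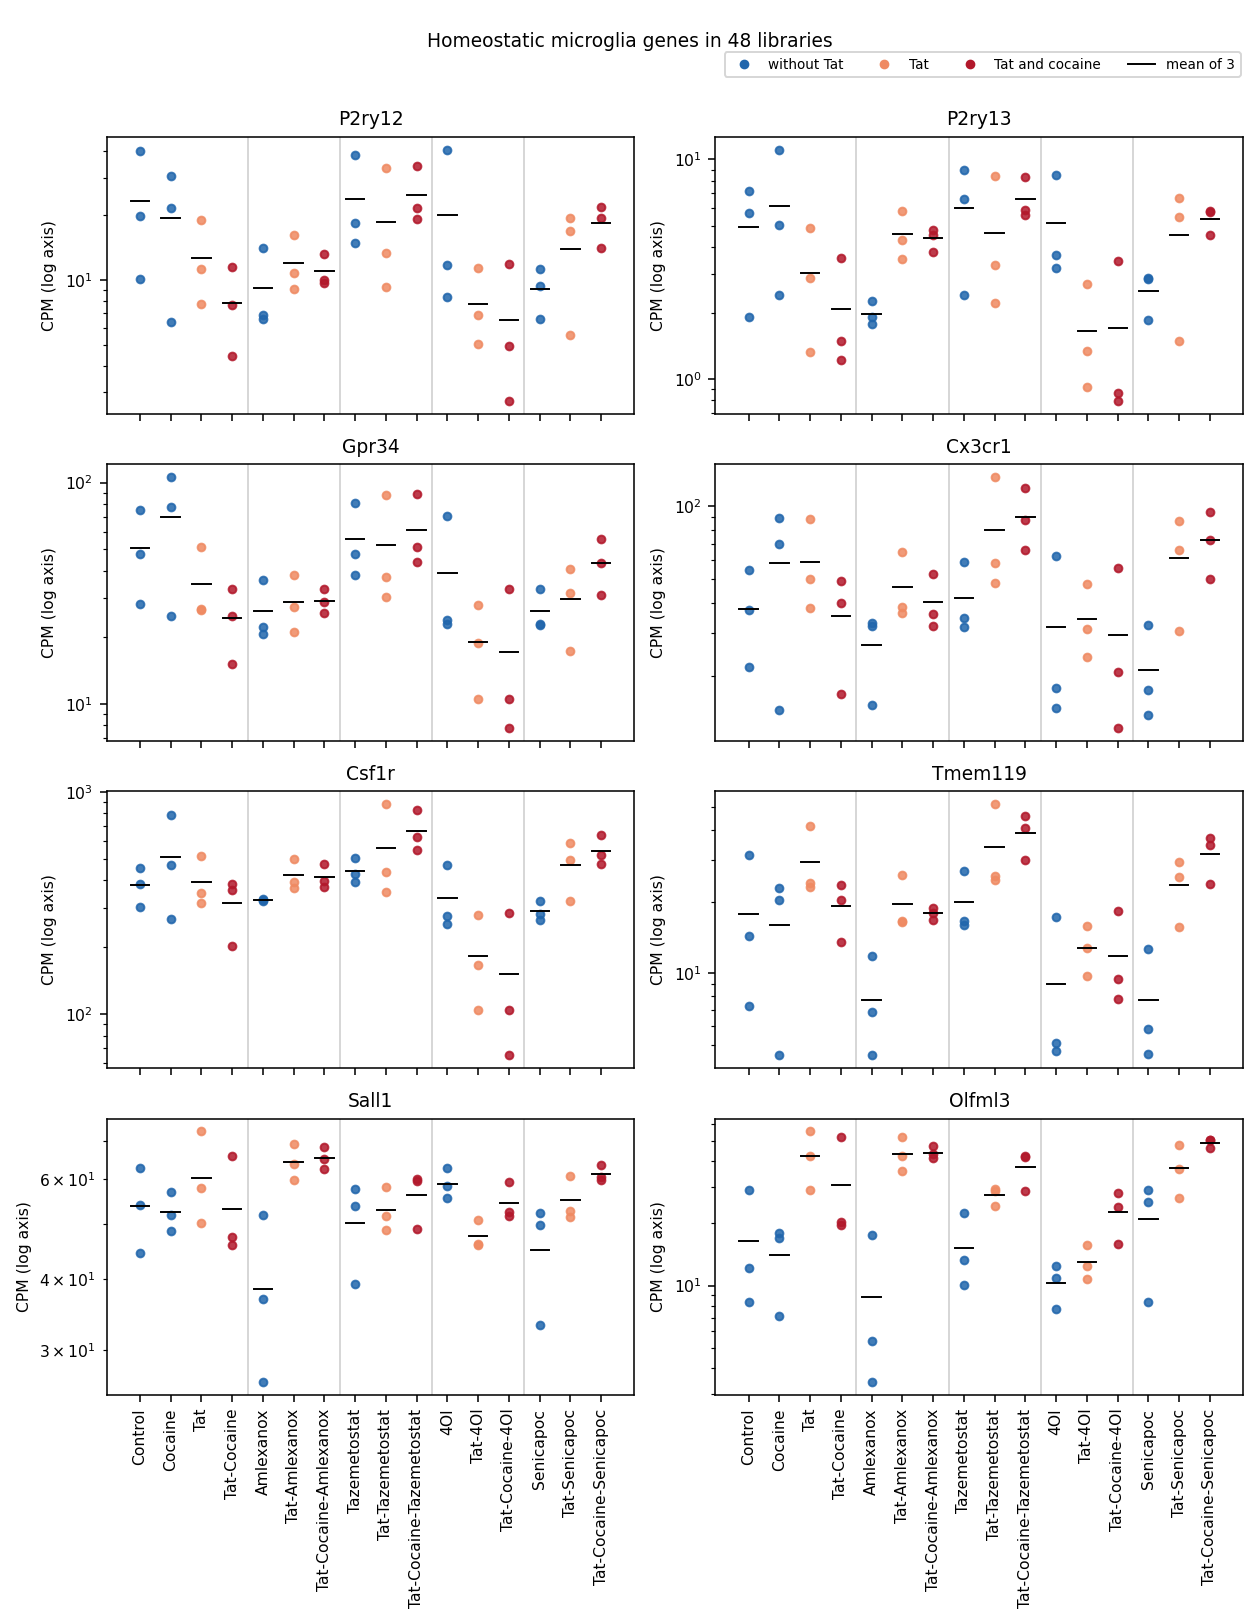
Level of 8 homeostatic microglia genes in each of 48 libraries (CPM, log axis; 16 groups of 3 libraries on the x axis; colors give no Tat, Tat, or Tat and cocaine; bars are means of 3). Libraries of one group often spanned as wide a range as the group means did, and Sall1 was the gene whose libraries stayed closest together.

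The spread within groups was shared by most of the members. Deviations of the libraries from their group mean were compared over 48 libraries, as a description, since libraries share culture composition and depth. P2ry12, P2ry13, Gpr34, Cx3cr1, Csf1r and Tmem119 correlated with one another with r between 0.72 and 0.95. The mean of the 12 pan-myeloid genes gave r of 0.93 with P2ry12, 0.80 with P2ry13, 0.96 with Gpr34, 0.96 with Cx3cr1, 0.95 with Csf1r and 0.91 with Tmem119. The mean of the neuron markers gave r of -0.65 to -0.74 with the same 6 genes. The libraries of a group thus differed in how much myeloid RNA they held, and these 6 genes moved with it.

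Sall1 and Olfml3 behaved otherwise. Their r with the pan-myeloid mean was -0.09 and -0.17. Their r with the mean of 10 astrocyte markers was 0.86 for Sall1 and 0.74 for Olfml3, and with each other it was 0.75. Both genes are listed as microglial, but within groups their r with the other 6 was only -0.30 to 0.34. Over the 16 group means the picture was another one. There the r with the pan-myeloid mean was 0.76 for Olfml3 and 0.50 for Sall1, and with the astrocyte mean -0.45 and 0.11. A single cell type for all 8 members was thus not seen within groups, and the cells that express these 2 genes were not tested.

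**Figure D2:**
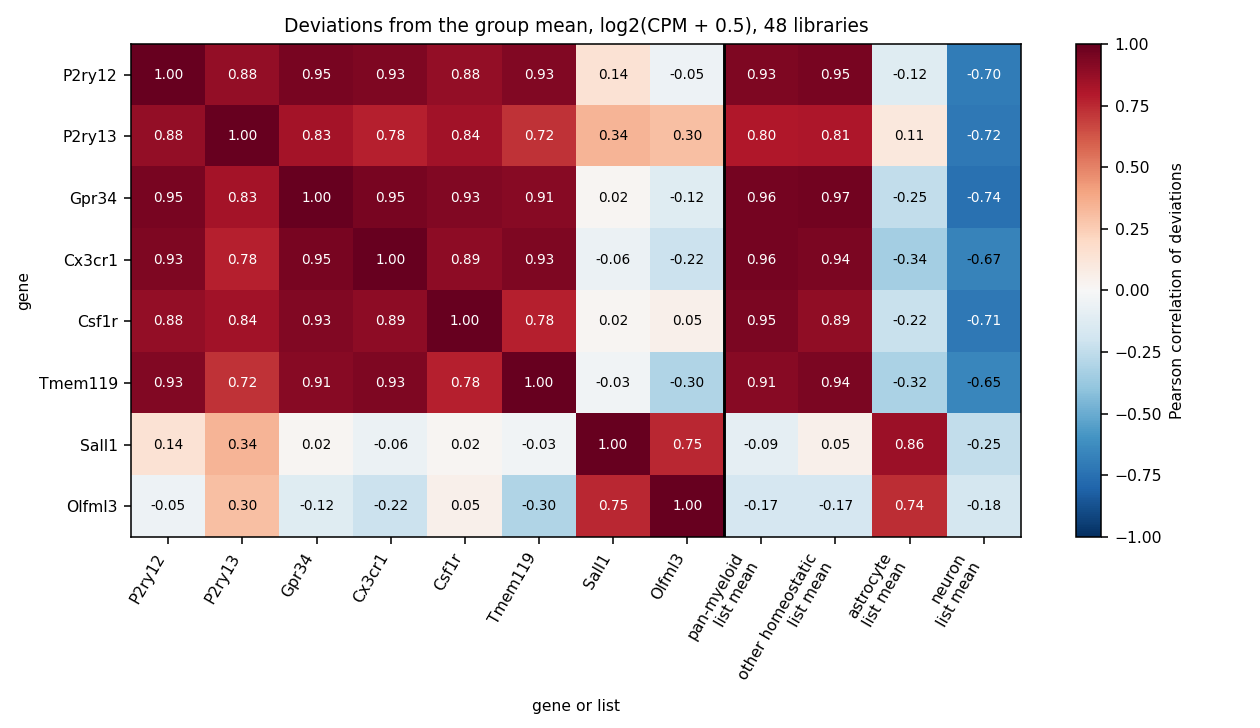
Pearson correlation of deviations from the group mean (log2(CPM + 0.5), 48 libraries) between members and with the means of 4 marker lists. P2ry12, P2ry13, Gpr34, Cx3cr1, Csf1r and Tmem119 form one block (0.72 to 0.95) and Sall1 and Olfml3 another (0.75) that goes with astrocyte markers.

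The first comparison asked how Tat alone changed these genes. Olfml3 was at 12.1, 8.34 and 28.8 CPM in the 3 Control libraries and at 55.6, 42.3 and 29.03 CPM with Tat. All 3 Tat libraries were above all 3 Control libraries, the closest pair being 29.03 and 28.8 CPM. Olfml3 rose by 1.48 on the log2 scale (SE 0.456, 95% CI 0.55 to 2.41, limma FDR 0.0178), 2.79-fold, and was the only member called, against 21.3% of all genes tested and 14.6% called higher. The call was lost without Control replicate 1 or 2, without Tat replicate 1 or 2, and in a fit to the 6 libraries alone.

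Tmem119 was at 7.32, 31.5 and 14.3 CPM in Control and at 22.97, 41.5 and 24.0 CPM with Tat. P2ry12 was at 10.1, 40.01 and 19.97 CPM in Control and at 11.2, 18.99 and 7.78 CPM with Tat. Gpr34 was at 28.3, 75.4 and 47.5 CPM in Control and at 26.8, 50.9 and 26.5 CPM with Tat. The groups overlapped for each of these 3 genes, and Control replicate 2 was the highest Control library in all of them.

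Cx3cr1 was at 21.6, 54.3 and 37.2 CPM in Control and at 50.2, 88.5 and 38.2 CPM with Tat. Csf1r was at 303, 456 and 383 CPM in Control and at 351, 513 and 315 CPM with Tat. P2ry13 was at 1.92, 5.71 and 7.22 CPM in Control and at 2.89, 4.87 and 1.32 CPM with Tat. These groups overlapped too, and Tat replicate 2 was the highest Tat library for each of the 3 genes.

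The differences, Tat minus Control, were 0.90 for Tmem119 (limma FDR 0.192), 0.64 for Cx3cr1 (FDR 0.445), 0.16 for Sall1 (FDR 0.53) and 0.03 for Csf1r (FDR 0.96). For the nucleotide and lipid receptors they were -0.74 for P2ry12 (FDR 0.369), -0.60 for P2ry13 (FDR 0.433) and -0.49 for Gpr34 (FDR 0.513). None of these 7 passed the threshold, and the 95% CI of P2ry12, -1.92 to 0.44, leaves a wide range of changes in either direction. The pan-myeloid sum was 639 to 1184 CPM in Control and 1361 to 2427 CPM with Tat, without overlap.

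Cocaine alone was compared with Control to ask for its effect without Tat. P2ry12 was at 6.39, 30.4 and 21.6 CPM with cocaine, and Cx3cr1 at 14.4, 89.7 and 69.9 CPM against 21.6, 54.3 and 37.2 CPM in Control. No member was called, against 0.201% of all genes, and 0 of the 8 had an unadjusted p under 0.05. The differences ran from -0.30 for P2ry12 to 0.35 for Cx3cr1.

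Tat followed by cocaine was compared with the same Control libraries. P2ry12 was at 7.62, 4.42 and 11.5 CPM, P2ry13 at 1.49, 1.23 and 3.54 CPM against 1.92, 5.71 and 7.22 CPM in Control, and Gpr34 at 33.1, 15.1 and 25.0 CPM. Each of the 3 genes overlapped with Control through Control replicate 1, which was the lowest Control library for all of them. The differences were -1.40 for P2ry12 (95% CI -2.59 to -0.22, limma FDR 0.104), -1.02 for P2ry13 (FDR 0.208) and -0.99 for Gpr34 (FDR 0.204), and no member was called, against 14.9% of all genes. With the replicate number as a block term, P2ry12 (limma FDR 0.0125) and Gpr34 (FDR 0.0489) passed the threshold. In this comparison libraries of the same number deviated together. The share of all genes called with the block was not counted, and the 14.9% is that of the fit without it. Tat-Cocaine minus Tat gave no call among the members either (0.0189% of all genes), with differences from -0.78 for Cx3cr1 to -0.18 for Sall1 and 0 unadjusted p under 0.05.

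Averaging gave more precision. Tat was compared with no Tat over 5 backgrounds without cocaine, namely no compound and the 4 compounds, 15 libraries against 15. Tmem119 rose by 1.06 (SE 0.223, limma FDR 0.000154), 2.08-fold, and its difference was above 0 in all 5 backgrounds. Cx3cr1 rose by 0.83 (SE 0.263, FDR 0.00827), 1.77-fold, and also in all 5. Olfml3 rose by 1.24 (SE 0.204, FDR 5.25e-06), 2.36-fold, in all 5 as well. Sall1 rose by 0.21 (SE 0.0779, FDR 0.0238), 1.15-fold, in 4 of 5, and this call was lost under plain CPM scaling, under quantile normalization and without any 1 of 5 libraries (Amlexanox replicate 3, Control replicate 1, Senicapoc replicate 2, Tat replicate 1 or Tazemetostat replicate 1). These 4 of 8 called genes stand against 56.5% of all genes called, 29.9% higher.

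P2ry12, P2ry13, Gpr34 and Csf1r were not called in the same average. The difference was -0.27 for P2ry12 (95% CI -0.80 to 0.25), -0.15 for P2ry13 (-0.64 to 0.34), -0.27 for Gpr34 (-0.73 to 0.20) and 0.07 for Csf1r (-0.28 to 0.42). The 5 backgrounds differed in sign. P2ry12 (-1.06 to 0.45), P2ry13 (-1.35 to 1.00) and Gpr34 (-0.92 to 0.13) were each lower with Tat in 3 and higher in 2. Csf1r (-0.92 to 0.65) was lower in 1 and higher in 4. P2ry13 was without overlap higher in 1 background and lower in 1. In single libraries P2ry12 ran from 5.04 to 33.4 CPM (median 11.2 CPM) with Tat and from 6.60 to 40.5 CPM (median 11.8 CPM) without it. Tmem119 by contrast had a median of 24.0 CPM with Tat and 11.8 CPM without, in ranges of 9.73 to 51.5 CPM and 4.55 to 31.5 CPM. Cx3cr1 ran from 24.0 to 132 CPM (median 48.2 CPM) with Tat and from 13.8 to 62.4 CPM (median 31.9 CPM) without. Olfml3 ran from 10.8 to 55.6 CPM (median 29.2 CPM) with Tat and from 3.41 to 29.1 CPM (median 12.1 CPM) without. The ranges overlapped for each of these genes, since the libraries differed widely within both conditions.

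Other cell markers moved at the same time. Over the same 5 backgrounds 11 of 12 pan-myeloid genes rose and none fell (median 0.95, against -0.00 over all genes tested), 5 of 5 genes of dividing cells rose (median 1.19) and 9 of 14 neuron markers fell (median -0.35). Of the 12 border macrophage markers 3 rose and 5 fell. All 4 blood monocyte and neutrophil markers tested rose, where those of T and B cells stayed below the filter. Without a compound their sum was 0.345 to 1.77 CPM in Control and 11.4 to 17.2 CPM with Tat. It was 12.3 to 18.9 CPM in Tat-Amlexanox, 10.1 to 17.4 CPM in Tat-Senicapoc, 4.92 to 11.1 CPM in Tat-Tazemetostat and 1.34 to 4.73 CPM in Tat-4OI. The part of these shifts in the members' values was not tested.

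To set the members beside the myeloid content of each library, the mean log2 value of the 12 pan-myeloid genes was subtracted from every gene of that library. On this scale P2ry12 in Tat libraries was lower than in Control by 1.82 (-1.82, SE 0.321, limma FDR 0.000166), P2ry13 differed by -1.68 (FDR 0.00258), Gpr34 by -1.57 (FDR 0.000138) and Csf1r by -1.05 (FDR 0.0058), all without overlap between the groups (71.8% of all genes were lower without overlap). Tmem119 differed by -0.18 (FDR 0.565), Cx3cr1 by -0.43 (FDR 0.18), Sall1 by -0.92 (FDR 0.0676) and Olfml3 by 0.40 (FDR 0.547). Tmem119, Cx3cr1, Sall1 and Csf1r thus turned from values above 0 as deposited to values below 0 here. The subtraction moved the median of all genes by -1.07, since the reference itself was higher with Tat, and 63.1% of all genes were called lower on it, so it is a ratio to myeloid genes and has a meaning for genes of myeloid cells only. The list cannot tell microglia from border macrophages or blood monocytes, which express it too.

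The per-library ratios were as follows. P2ry12 minus the pan-myeloid mean ran from -3.57 to -2.59 (median -2.93) in the 15 Tat libraries without cocaine and from -2.87 to -0.71 (median -1.68) in the 15 libraries without either. Gpr34 ran from -2.01 to -1.20 (median -1.65) and from -1.25 to 0.07 (median -0.32). Csf1r ran from 1.62 to 2.26 (median 2.03) with Tat and from 2.52 to 3.24 (median 2.85) without. Every Tat library was below every library without Tat, which held for 0.321% of all genes. Csf1r varied with the subtracted mean between libraries of a group (r 0.95), and a gene that does not takes on the spread of that mean. The 0.321% therefore does not mark the Csf1r fall as a rare one, since 91.5% of all genes were called lower in the average on this scale. P2ry12 and P2ry13 were each below the whole range of the other group in 8 of 15 Tat libraries, and Gpr34 in 13 of 15.

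**Figure D3:**
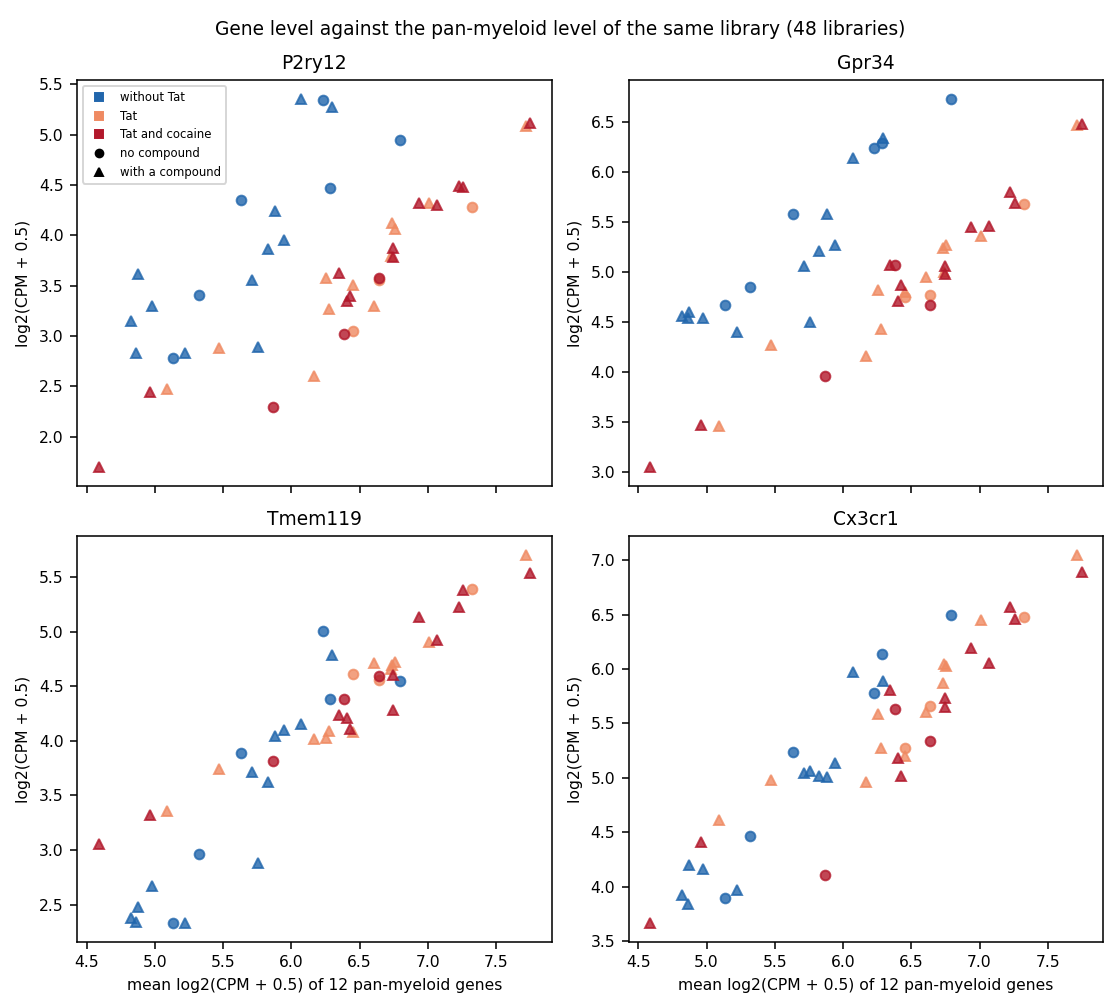
Level of P2ry12, Gpr34, Tmem119 and Cx3cr1 in each library against the mean of 12 pan-myeloid genes in the same library (both log2(CPM + 0.5); 48 libraries; color gives no Tat, Tat, or Tat and cocaine, and shape the presence of a compound). Libraries with Tat lie mostly below those without Tat for P2ry12 and Gpr34 at a like pan-myeloid level, and along the same course for Tmem119 and Cx3cr1.

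Averaged over the 5 backgrounds on this scale, P2ry12 fell by 1.22 (-1.22, SE 0.144, limma FDR 6.78e-09), P2ry13 differed by -1.10 (FDR 8.55e-07), Gpr34 by -1.22 (FDR 1.36e-10), Csf1r by -0.88 (FDR 3.96e-08) and Sall1 by -0.74 (FDR 0.0009), all called lower, against 91.5% of all genes called lower and a median of -0.95 over all genes. Tmem119 at 0.11 (FDR 0.424), Cx3cr1 at -0.12 (FDR 0.373) and Olfml3 at 0.29 (FDR 0.321) were not called. Of the 6 members that varied with myeloid genes within groups, 4 were called lower on this ratio and Tmem119 and Cx3cr1 were not called. That difference between genes was not itself tested. The count of 4 of 6 is not above the 91.5% of all genes called lower, so it does not set these members apart from other genes. Sall1 and Olfml3 did not vary with myeloid genes between libraries of a group, so the ratio says little of them.

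The size of the difference, but not its sign, depended on the reference gene for 5 of the members. With each of the 12 pan-myeloid genes as the only reference (an alternative chosen after seeing the data), the averaged difference ran from -1.79 to -0.71 for P2ry12, from -1.67 to -0.59 for P2ry13, from -1.78 to -0.70 for Gpr34 from -1.45 to -0.37 for Csf1r and from -1.31 to -0.23 for Sall1, below 0 with 12 of 12 references for each gene. For Tmem119 it ran from -0.46 to 0.62 and was below 0 with 5 of 12, for Cx3cr1 from -0.69 to 0.39, below 0 with 7 of 12, and for Olfml3 from -0.28 to 0.80, below 0 with 4 of 12. The sign for these last genes therefore depended on the reference. All 12 references were themselves higher with Tat, so a gene without a change as deposited would be below 0 with each of them. Sall1 was below 0 with all 12 although it rose by 0.21 as deposited. A sign shared by the 12 references is therefore no separate support for a fall.

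The ratio was also followed in each compound background. Tat-4OI minus 4OI gave -1.41 for P2ry12, -1.70 for P2ry13, -1.27 for Gpr34 and -1.27 for Csf1r, and these 4 members were called where 0.208% of all genes were called lower (median of all genes -0.34). Tat-Tazemetostat minus Tazemetostat gave -1.41, -1.34 and -1.16 for P2ry12, P2ry13 and Gpr34, all called (5.55% of all genes lower, median -0.98), and -0.75 for Csf1r (limma FDR 0.0547). Tat-Senicapoc minus Senicapoc gave -1.004, -0.89, -1.33 and -0.80 for P2ry12, P2ry13, Gpr34 and Csf1r and -1.15 for Sall1, all called, where 90.1% of all genes were called lower (median -1.46). Tat-Cocaine minus Control gave -1.97, -1.59, -1.56 and -0.87 for P2ry12, P2ry13, Gpr34 and Csf1r, all called, where 1.91% of all genes were called lower and the median of all genes was -0.56. Tat and Tat-Cocaine were compared with the same 3 Control libraries. The share of all genes called lower on this ratio swung from 0.208% to 90.1% between these comparisons. P2ry12, P2ry13, Gpr34 and Csf1r varied with the subtracted mean between libraries of a group, with r of 0.80 to 0.96. Genes that do not vary with it take on its spread. The calls of the members and these shares are therefore not directly comparable.

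For P2ry12, P2ry13, Gpr34 and Csf1r the difference in the ratio was smallest under Amlexanox. Tat-Amlexanox minus Amlexanox gave -0.76 for Gpr34 (limma FDR 0.0489), the only member called (16.2% of all genes lower, median -0.87), -0.48 for P2ry12 (FDR 0.197), -0.53 for Csf1r (FDR 0.0861) and 0.11 for P2ry13 (FDR 0.793). The interaction that tests whether the Tat difference in the ratio was another one with Amlexanox than without was 1.34 for P2ry12 (SE 0.454, FDR 0.393) and 1.79 for P2ry13 (SE 0.523, FDR 0.207). A difference between these backgrounds was therefore not shown at the threshold, where 0% of all genes were called.

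**Figure D4:**
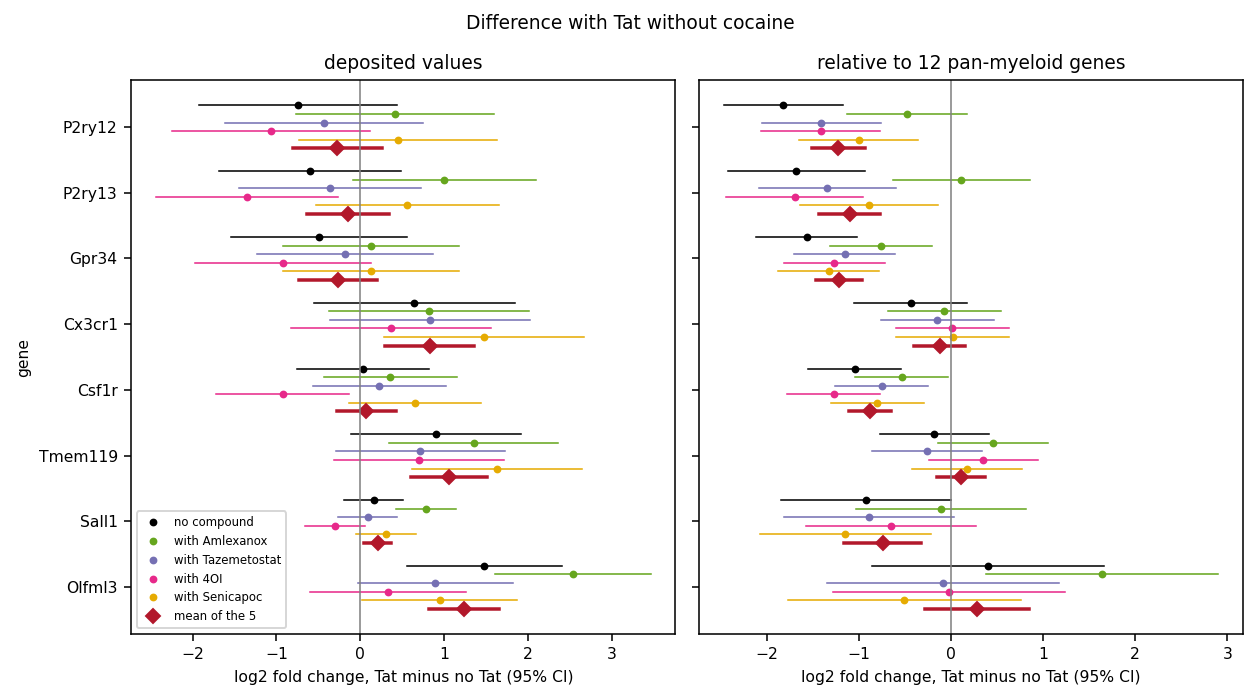
Difference with Tat (log2, Tat minus no Tat, without cocaine) for 8 members in 5 backgrounds with the mean of the 5 (diamond), as deposited (left) and relative to 12 pan-myeloid genes (right). Bars are 95% confidence intervals. On the right P2ry12, P2ry13, Gpr34 and Csf1r lie below 0 in the mean (-1.22, -1.10, -1.22 and -0.88) while Tmem119 and Cx3cr1 lie near it.

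On the deposited scale, Tat under each compound gave these calls. With Amlexanox, Olfml3 was at 17.6, 5.39 and 3.41 CPM without Tat and at 52.0, 42.4 and 35.6 CPM with it. It rose by 2.54 (limma FDR 0.000146), 5.80-fold, Tmem119 rose by 1.35 (FDR 0.0313) from 4.55, 11.8 and 6.89 CPM to 16.4, 25.9 and 16.6 CPM, and Sall1 rose by 0.78 (FDR 0.00119) from 51.8, 36.97 and 26.4 CPM to 68.9, 63.7 and 59.7 CPM. All 3 were without overlap, as were 6 of the 8 members in all, in a comparison that called 39.6% of all genes (22.6% higher) and in which 27.1% of all genes were higher without overlap. With Senicapoc, Tmem119 was at 4.58, 12.6 and 5.87 CPM and with Tat added at 15.7, 29.4 and 25.4 CPM, a rise of 1.63 (FDR 0.0224; 16% of all genes called, 10.8% higher). With Tazemetostat and with 4OI no member was called (16.1% and 5.18% of all genes). The Tmem119 calls were lost without any 1 of 4 libraries in each comparison, Amlexanox replicate 1 or 3 or Tat-Amlexanox replicate 1 or 2, and Senicapoc replicate 1 or 3 or Tat-Senicapoc replicate 2 or 3.

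The signals that reach these receptors moved as well. Csf1, the ligand of Csf1r that macrophages depend on, rose with Tat from a mean of 99.1 to 250 CPM over the 5 backgrounds (1.32, SE 0.130, limma FDR 2.7e-10). Il34, the second ligand of Csf1r, which neurons make, rose by 0.33 (FDR 4.23e-05). Cx3cl1, the ligand of Cx3cr1, was at a mean of 214 CPM with Tat and 211 CPM without (-0.01, FDR 0.947).

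Among the transforming growth factor beta genes, Tgfb1 rose by 0.61 (limma FDR 0.000812), its receptor Tgfbr2 by 0.63 (FDR 6.33e-05), the signal mediator Smad3 by 0.49 (FDR 1.85e-07) and Nrros, which tethers the latent factor on microglia, by 0.45 (FDR 0.0118). Tgfb2 fell by 0.28 (-0.28, FDR 0.00438), and Tgfbr1 differed by 0.23 (FDR 0.16). Of the 14 genes of this list of signals 9 rose and 1 fell with Tat, where 56.5% of all genes were called and 29.9% were higher. The gene of the Csf1r ligand thus rose where Csf1r itself was not called.

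The other genes known from homeostatic microglia were split. Of 29 tested, 11 rose and 12 fell with Tat over the 5 backgrounds, with a median of -0.02 against -0.00 for all genes. The genes that fell most were Crybb1, a crystallin, from a mean of 4.09 to 0.687 CPM (-1.79), Ltc4s, a leukotriene synthase, from 2.10 to 0.286 CPM (-1.61), and Cst3, a secreted protease inhibitor also made by astrocytes, from 3930 to 1794 CPM (-1.10). Those that rose most were Lpcat2 (1.03), Il10ra (0.78) and Slc2a5, the fructose transporter (0.76). Relative to the pan-myeloid genes 26 of the 29 were called lower and none higher, with a median of -0.97, close to that of all genes (-0.95).

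Among genes tied to activated microglia, those called with Tat were higher. Of 12 disease-associated genes 8 rose and none fell with Tat, led by Ch25h (2.75), which makes a hydroxylated cholesterol, Itgax (2.30), an integrin, and Clec7a (2.22), a receptor for fungal glucans. Of 12 inflammatory genes tested 11 rose and none fell (median 1.65). Of 12 transcription factors of microglia 8 rose and 1 fell (median 0.37), and both P2Y receptor relatives that passed the filter rose. In this average over the 5 backgrounds 56.5% of all genes were called, 29.9% higher.

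Cocaine added to Tat left the members without a call. Over 5 Tat backgrounds, 15 libraries against 15, the differences ran from -0.16 for Cx3cr1 to 0.22 for Olfml3, 0 of 8 were called, 0 had an unadjusted p under 0.05, and 4.55% of all genes were called. For P2ry12 the 95% CI was -0.53 to 0.52, for Tmem119 -0.48 to 0.42 and for Csf1r -0.39 to 0.32, so that changes beyond about these sizes were not seen. In none of the 4 compound backgrounds was a member called when cocaine was added to Tat (0% of all genes with Amlexanox, Tazemetostat and 4OI, and 0.183% with Senicapoc).

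4OI was the compound with lower values of several members. Csf1r was at 351, 513 and 315 CPM with Tat and at 166, 278 and 104 CPM in Tat-4OI. Olfml3 was at 10.8, 12.4 and 15.7 CPM and Tmem119 at 12.8, 15.8 and 9.73 CPM in Tat-4OI. All 3 Tat-4OI libraries were below all 3 Tat libraries for each of these genes.

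Olfml3 fell by 1.64 (-1.64, SE 0.456, limma FDR 0.0132), 3.11-fold, and Csf1r by 1.19 (-1.19, SE 0.389, FDR 0.034), 2.28-fold, while the difference of Tmem119 was -1.15 (FDR 0.108). These 2 calls stand against 15.6% of all genes called and 9.48% called lower, and the 3 genes without overlap against 17.2% of all genes. The Csf1r call was lost without Tat replicate 1 or 2 or Tat-4OI replicate 1 or 3, without the filter on low values, and in fits to fewer libraries. The Olfml3 call was lost without Tat replicate 1 or 2 or Tat-4OI replicate 1.

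With cocaine present as well, Csf1r was at 363, 203 and 386 CPM in Tat-Cocaine and at 65.2, 284 and 104 CPM in Tat-Cocaine-4OI. It fell by 1.29 (-1.29, limma FDR 0.037; 7.36% of all genes called), with overlap, since Tat-Cocaine-4OI replicate 2 was above Tat-Cocaine replicate 2. That call too was lost without any 1 of 4 libraries (Tat-Cocaine replicate 1 or 3, Tat-Cocaine-4OI replicate 1 or 3). 4OI alone gave no call (3.15% of all genes), and Csf1r was at 255, 468 and 276 CPM against 303, 456 and 383 CPM in Control.

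Averaged over untreated, Tat and Tat-Cocaine cultures, 9 libraries against 9, Csf1r fell with 4OI by 0.90 (-0.90, limma FDR 0.00318), 1.87-fold, Tmem119 by 0.94 (-0.94, FDR 0.0156), 1.92-fold, and Olfml3 by 0.81 (-0.81, FDR 0.0228), 1.76-fold. Gpr34 differed by -0.68 (FDR 0.0989), P2ry12 by -0.45 (FDR 0.372), P2ry13 by -0.30 (FDR 0.547), Cx3cr1 by -0.53 (FDR 0.286) and Sall1 by -0.04 (FDR 0.822). The 3 calls stand against 22.8% of all genes called and 11.8% lower. The Csf1r call held without any 1 of the 18 libraries, the Tmem119 call was lost without Control replicate 2 and in a fit to 21 libraries, and the Olfml3 call without Control replicate 3, Tat replicate 1, Tat-Cocaine replicate 3 or Tat-Cocaine-4OI replicate 1.

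Myeloid markers were lower in the same cultures. With 4OI 11 of 12 pan-myeloid genes fell (median -0.92) and 11 of 12 border macrophage markers fell (median -1.39), while 4 of 10 astrocyte markers rose and 0 of 14 neuron markers were called. The border macrophage sum was 495 to 857 CPM with Tat and 134 to 492 CPM in Tat-4OI. Relative to the pan-myeloid genes Csf1r differed by -0.01 with 4OI (FDR 0.946), Tmem119 by -0.05 (FDR 0.778) and Olfml3 by 0.08 (FDR 0.837), and P2ry12 at 0.44 (FDR 0.0268), P2ry13 at 0.59 (FDR 0.011) and Sall1 at 0.85 (FDR 0.00417) were called higher by limma, on a scale where 89.5% of all genes were called higher and the median of all genes was 0.90. The 95% CI of the ratio was -0.30 to 0.28 for Csf1r and -0.39 to 0.29 for Tmem119, so larger departures of these genes from the general myeloid genes were not seen. Among the signals, Csf1 fell with 4OI by 0.47 (-0.47, FDR 0.0387), Tgfbr2 by 0.49 (-0.49, FDR 0.0224) and Nrros by 0.95 (-0.95, FDR 0.000405).

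Tazemetostat was followed by higher values where Tat and cocaine were both present. P2ry12 was at 7.62, 4.42 and 11.5 CPM in Tat-Cocaine and at 21.8, 34.1 and 19.2 CPM in Tat-Cocaine-Tazemetostat. P2ry13 was at 5.90, 8.33 and 5.59 CPM and Csf1r at 626, 827 and 549 CPM in the latter. For each of the 3 genes the lowest Tazemetostat library was above the highest Tat-Cocaine library.

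P2ry12 rose by 1.66 (SE 0.583, limma FDR 0.0329), 3.17-fold, P2ry13 by 1.54 (FDR 0.0317), 2.91-fold, and Csf1r by 1.11 (FDR 0.0333), 2.15-fold. Gpr34 differed by 1.31 (FDR 0.053), Cx3cr1 by 1.44 (FDR 0.0606) and Tmem119 by 1.02 (FDR 0.114), also without overlap, and Olfml3 by 0.42 (FDR 0.497) and Sall1 by 0.09 (FDR 0.704) with overlap. The comparison called 28.7% of all genes (15.2% higher), and 24.8% of all genes were higher without overlap, against 6 of the 8 members. Each of the 3 calls was lost without Tat-Cocaine replicate 1 or 2 or Tat-Cocaine-Tazemetostat replicate 1 or 2, and that of Csf1r also without the filter on low values.

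Here too other markers moved. In Tat-Cocaine-Tazemetostat 6 of 12 pan-myeloid genes rose (median 1.11) and their sum was 2021 to 3338 CPM against 888 to 1478 CPM in Tat-Cocaine, while 11 of 14 neuron markers fell (median -1.03), from 2892 to 3694 CPM to 1348 to 2034 CPM, and 3 of 8 oligodendrocyte markers fell. Relative to the pan-myeloid genes no member was called (57% of all genes were), with 0.60 for P2ry12 (FDR 0.0889), 0.48 for P2ry13 (FDR 0.226) and 0.05 for Csf1r (FDR 0.868), and the median of all genes was -1.04. Of the partners, Tgfb1 rose by 1.19, Tgfbr1 by 1.30, Tgfbr2 by 1.03 and Nrros by 1.07, Tgfb2 fell by 0.56 (-0.56), and Csf1 differed by 0.27 (FDR 0.49). Trem2, a lipid receptor of microglia, rose by 2.33, the largest change among the other homeostatic genes that were called.

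Without cocaine the compound gave no call among the members. Tazemetostat minus Control ran from -0.10 for Sall1 to 0.35 for Tmem119 (0% of all genes called), Tat-Tazemetostat minus Tat from -0.58 for Olfml3 to 0.49 for P2ry13 (0%), and 0 of 8 members had an unadjusted p under 0.05 in either. In the average over 3 backgrounds no member was called against 11.4% of all genes, with 0.74 for P2ry12 (limma FDR 0.124), 0.76 for P2ry13 (FDR 0.0891), 0.66 for Gpr34 (FDR 0.123) and 0.58 for Csf1r (FDR 0.0761). The interaction of Tazemetostat with Tat-Cocaine was 1.54 for P2ry12 (FDR 0.381) and 1.29 for P2ry13 (FDR 0.411), so that a difference between the backgrounds was not shown.

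Sall1 was the member called with Amlexanox alone. It was at 44.5, 53.9 and 62.8 CPM in Control and at 51.8, 36.97 and 26.4 CPM with Amlexanox, with overlap through replicate 1. It fell by 0.52 (-0.52, SE 0.174, limma FDR 0.0472), against 11.4% of all genes called (7.60% lower). Astrocyte markers were lower too, since 6 of 10 fell and none rose (median -0.74, against 0.0072 over all genes), with a sum of 5863 to 13742 CPM against 10607 to 12661 CPM in Control, and their part in the Sall1 value was not tested. The call was lost without Amlexanox replicate 2 or 3 or Control replicate 2 or 3, without the filter on low values, without a trend in the variance and in a fit to the 6 libraries alone. Beside Tat (0.837% of all genes called) and beside Tat-Cocaine (0.925%) no member was called with Amlexanox, nor in the average over 3 backgrounds (7.99%), where the differences ran from -0.54 for Tmem119 (95% CI -1.12 to 0.04) to 0.22 for P2ry13 (95% CI -0.41 to 0.85).

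For Sall1 the interaction of Amlexanox with Tat-Cocaine was called. Sall1 was at 47.4, 45.97 and 65.7 CPM in Tat-Cocaine and at 62.3, 68.3 and 65.0 CPM in Tat-Cocaine-Amlexanox, so that the difference made by Amlexanox was -0.52 without Tat and cocaine and 0.31 with them. The interaction was 0.83 (SE 0.246, limma FDR 0.0308), against 9.32% of all genes called and 6.45% higher. In the same interaction 5 of 10 astrocyte markers were called higher and none lower (median 0.82), and their part in it was not tested. It was lost without any 1 of 9 of the 12 libraries (Amlexanox replicate 2 or 3, Control replicate 2 or 3, Tat-Cocaine replicate 1 or 2, or any Tat-Cocaine-Amlexanox replicate) and in a fit to the 12 libraries alone. In the other 7 interactions of a compound with Tat or Tat-Cocaine no member was called, where 1.84% (Tat with Amlexanox), 0.497% (Tat with 4OI), 0.113% (Tat-Cocaine with 4OI) and 0% (the other 4) of all genes were called.

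Senicapoc gave no call among the members. Beside Tat-Cocaine, P2ry12 was at 19.6, 21.9 and 14.1 CPM with it and 7.62, 4.42 and 11.5 CPM without, and P2ry13 at 5.78, 5.83 and 4.51 CPM against 1.49, 1.23 and 3.54 CPM. The groups did not overlap for 5 of the 8 members, P2ry12 (1.26, limma FDR 0.298), P2ry13 (1.28, FDR 0.253), Cx3cr1 (1.11, FDR 0.358), Csf1r (0.82, FDR 0.306) and Tmem119 (0.72, FDR 0.48), where 11.2% of all genes were higher without overlap and 0.0441% were called. Of these, 3 had an unadjusted p under 0.05. The pan-myeloid sum did not overlap either, at 1562 to 2223 CPM against 888 to 1478 CPM, with 0 of 12 of its genes called (median 0.65). Relative to the pan-myeloid genes the differences were 0.59 for P2ry12 (limma FDR 0.299), 0.61 for P2ry13, 0.44 for Cx3cr1, 0.15 for Csf1r and 0.053 for Tmem119, and no member was called (0% of all genes). Beside Control (0% of all genes called), where P2ry12 was at 6.60, 11.3 and 9.37 CPM and differed by -1.14 (FDR 0.583), and beside Tat (0.409%) no member was called either. The average over 3 backgrounds (1.16% of all genes called) ran from -0.21 for Tmem119 to 0.34 for P2ry13.

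**Figure D5:**
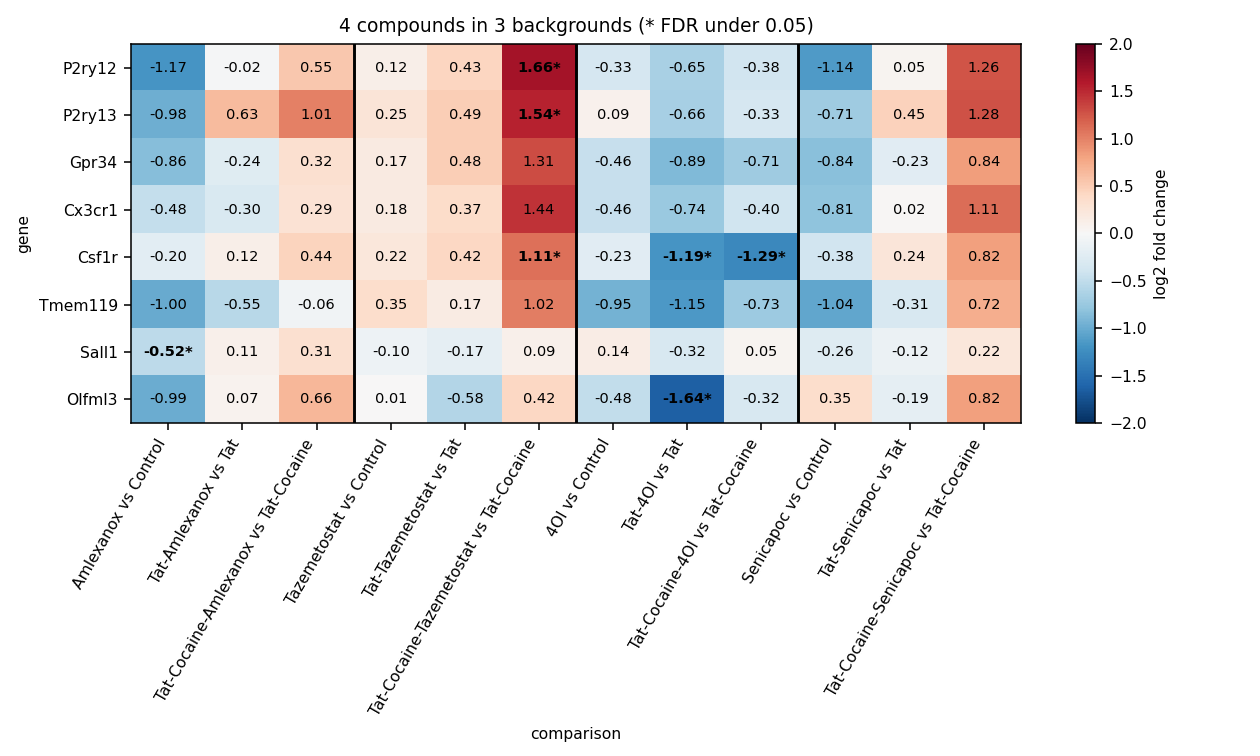
Difference made by each of 4 compounds in untreated, Tat and Tat-Cocaine cultures (log2 fold change in each cell, compound minus no compound; asterisks mark limma FDR under 0.05). The called cells are Sall1 with Amlexanox alone (-0.52), P2ry12, P2ry13 and Csf1r with Tazemetostat in Tat-Cocaine cultures (1.66, 1.54 and 1.11), Csf1r with 4OI in both Tat backgrounds (-1.19 and -1.29) and Olfml3 with 4OI beside Tat (-1.64).

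The compounds were also set against each other in the same background, which is 12 pairs, with p-values adjusted over all genes in each pair. The 4 compounds are not structural relatives. The widest contrast was Tazemetostat against 4OI in Tat-Cocaine cultures. Csf1r was at 626, 827 and 549 CPM against 65.2, 284 and 104 CPM, a difference of 2.39 (limma FDR 3.73e-05), 5.26-fold. Gpr34 was at 51.2, 88.8 and 43.6 CPM against 7.77, 33.2 and 10.6 CPM, a difference of 2.02 (FDR 0.00455). P2ry12 differed by 2.04 (FDR 0.0105), P2ry13 by 1.87 (FDR 0.0105), Cx3cr1 by 1.84 (FDR 0.0214) and Tmem119 by 1.74 (FDR 0.0105). These 6 called members stand against 24.4% of all genes called and 13.9% higher, beside 12 of 12 pan-myeloid genes that were higher (median 1.97). The Csf1r call held without any 1 of the 6 libraries. In a fit to the 6 libraries alone the calls of Gpr34 (FDR 0.0591) and Cx3cr1 (FDR 0.0675) were lost, and without single libraries the calls of the other 5 genes were each lost without Tat-Cocaine-4OI replicate 1. P2ry12, P2ry13, Tmem119 and Cx3cr1 also lost theirs without Tat-Cocaine-Tazemetostat replicate 2, P2ry13 and Cx3cr1 without Tat-Cocaine-4OI replicate 3, and Cx3cr1 without Tat-Cocaine-Tazemetostat replicate 1.

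Relative to the pan-myeloid genes (a scale added for these pairs after seeing the data) none of these 6 members was called. In the same contrast P2ry12 differed by -0.018 (95% CI -0.67 to 0.63, limma FDR 0.956), P2ry13 by -0.19, Tmem119 by -0.32, Cx3cr1 by -0.22, Gpr34 by -0.044 and Csf1r by 0.33 (95% CI -0.17 to 0.84, FDR 0.192). Sall1 at -2.02 (FDR 0.000106) and Olfml3 at -1.32 (FDR 0.0421) were called lower, on a scale where 95.8% of all genes were called lower and the median of all genes was -2.07.

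4OI was the lower compound in each other pair with a call. In Tat-Cocaine cultures 4OI against Senicapoc gave -2.11 for Csf1r (limma FDR 0.000275), -1.61 for P2ry13 (FDR 0.0419), -1.55 for Gpr34 (FDR 0.0425) and -1.45 for Tmem119 (FDR 0.0495), where 12.5% of all genes were called. In this pair libraries of the same number deviated together, and with the replicate block P2ry12 (limma FDR 0.00374) and Cx3cr1 (FDR 0.0139) were called as well. The share of all genes called with the block was not counted here either. Without the block, the Csf1r call held without any 1 of the 6 libraries but was lost in a fit to these 6 alone (FDR 0.0621), as were the other 3, and those of P2ry13, Gpr34 and Tmem119 were lost without Tat-Cocaine-4OI replicate 1 or 3 or Tat-Cocaine-Senicapoc replicate 1 or 2, and for P2ry13 and Tmem119 also replicate 3. The pan-myeloid sum was 351 to 1210 CPM with 4OI and 1562 to 2223 CPM with Senicapoc, and 12 of 12 of its genes were lower with 4OI (median -1.61). Relative to these genes P2ry13 differed by 0.059, Gpr34 by 0.12, Tmem119 by 0.22 and Csf1r by -0.44 (limma FDR 0.0925), and Sall1 at 1.5002 (FDR 0.00299) was the only member called, higher, where 92.6% of all genes were called higher and the median of all genes was 1.67.

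Amlexanox against 4OI gave 1.73 for Csf1r (limma FDR 0.00362, 8.86% of all genes) in Tat-Cocaine cultures, a call lost without Tat-Cocaine-4OI replicate 1 and in a fit to the 6 libraries alone (FDR 0.118).

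In Tat cultures Amlexanox against 4OI gave 1.70 for Olfml3 (limma FDR 0.0121) and 1.31 for Csf1r (FDR 0.023, 13.7% of all genes), Tazemetostat against 4OI gave 1.60 for Csf1r (FDR 0.00521, 16.1%), and 4OI against Senicapoc gave -1.45 for Olfml3 (FDR 0.0412) and -1.43 for Csf1r (FDR 0.0174, 8.43%). Csf1r was thus called in all 6 pairs that held 4OI as deposited, and in none of them relative to the pan-myeloid genes. The 6 pairs of Amlexanox, Tazemetostat and Senicapoc gave no call for any member (of all genes, 0.12% and 0.0189% for Tazemetostat against Senicapoc beside Tat and beside Tat-Cocaine, 0.396% for Amlexanox against Tazemetostat beside Tat-Cocaine, and 0% in the other 3), and for P2ry12 the 95% CI of Amlexanox minus Senicapoc beside Tat was -1.25 to 1.11, which does not show that they act alike. In Tat cultures, the Olfml3 call against Amlexanox was lost without Tat-4OI or Tat-Amlexanox replicate 1, and that against Senicapoc without any Tat-4OI library or Tat-Senicapoc replicate 2 or 3. The Csf1r call was lost against Amlexanox without Tat-4OI replicate 1 or 3 or Tat-Amlexanox replicate 1 or 2, against Tazemetostat without Tat-4OI replicate 3 or Tat-Tazemetostat replicate 2, and against Senicapoc without Tat-4OI replicate 1 or 3 or Tat-Senicapoc replicate 2 or 3. In fits to the 6 libraries alone it was also lost against Tazemetostat (FDR 0.115) and Senicapoc (FDR 0.0705). Such a fit of Amlexanox against Tazemetostat beside Tat-Cocaine gave calls that the main fit did not, all lower with Amlexanox. They were Tmem119 (-1.08, limma FDR 0.0276), P2ry12 (-1.12, FDR 0.0307), Cx3cr1 (-1.15, FDR 0.0322), Csf1r (-0.67, FDR 0.0372) and Gpr34 (-0.995, FDR 0.0385). Other pairs gained calls in the same way. Amlexanox against 4OI beside Tat gained P2ry13 (1.29, limma FDR 0.0395) and Sall1 (0.43, FDR 0.0208). Olfml3 was gained by Tazemetostat against 4OI beside Tat (1.06, FDR 0.0426) and by 4OI against Senicapoc beside Tat-Cocaine (-1.14, FDR 0.0317). The share of all genes called in these fits was not counted.

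The pan-myeloid genes again moved in these pairs. Of the 12, 2 were higher with Amlexanox than with 4OI beside Tat (median 0.81), 11 with Tazemetostat (median 1.35) and 4 with Amlexanox beside Tat-Cocaine (median 1.18), and 2 were lower with 4OI than with Senicapoc beside Tat (median -1.0003). Relative to them Csf1r differed by 0.42 (limma FDR 0.144), 0.19 (FDR 0.462), 0.50 (FDR 0.0623) and -0.39 (FDR 0.147) in these 4 pairs. Sall1 was called lower with Tazemetostat than with 4OI beside Tat (-1.27, FDR 0.0114, 88.2% of all genes lower) and with Amlexanox than with 4OI beside Tat-Cocaine (-0.97, FDR 0.0496, 81.5% of all genes lower), and was the only member called in these 4 pairs.

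The genes with the most similar pattern over the 16 group means are given as a description, since the groups share cultures and their composition. P2ry12 was closest to Gpr34 (r 0.94), Cndp2 (0.92) and P2ry13 (0.92), and Gpr34 to Slco2b1, Cndp2 and Tbc1d4 (0.95 each). P2ry13 was closest to Tgfbrap1 (0.93), Slc9a9 (0.93) and P2ry12 (0.92). Cx3cr1 was closest to Gm2a (0.99), Arhgap25 and Selplg (0.97 each), Tmem119 to Gngt2 and Parvg (0.98 each) and Cd2ap (0.97), and Csf1r to Fam78a (0.98), Cd84 and Lyl1 (0.97 each). Olfml3 was closest to Heg1 (0.98), Tmod4 and Prkdc (0.96 each), and Sall1 to Ago1 (0.95), Fbxo32 (0.94) and its relative Sall2 (0.93). Thus Gpr34 and P2ry13 were among the 3 closest genes of P2ry12 and P2ry12 among those of P2ry13, and no member was among those of Gpr34, Tmem119, Cx3cr1, Csf1r, Sall1 and Olfml3.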

How the data were processed

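RNA-seq libraries from 48 rat cortical cultures in 16 groups of 3 were used. Per the labels and methods, the authors trimmed reads (Trim Galore 0.4.5), aligned them (STAR 2.7.2), counted them per gene (Subread 1.5.3) and deposited CPM values scaled by TMM size factors (a signal per gene, not raw counts). The build is given as Rnor_6.0 in the methods and mRatBN7.2 in the submitters' notes. Columns with the authors' own fold changes and p-values were not used. Dividing by the value of 1 read gave whole reads for 85.0% to 87.3% of values within 0.02 read, so depth could be estimated but no count test was run.

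Genes with at least 0.5 CPM in 3 libraries were fitted as log2(CPM + 0.5) with limma 3.58.1 (R 4.3.3, trend, 1 mean per group, 32 residual degrees of freedom) over all 48 libraries and 15890 genes, in 50 contrasts. A gene was called at a Benjamini-Hochberg FDR under 0.05 over all genes of a contrast. For 3 libraries against 3 an exact two-sided permutation test cannot go below p = 0.1, so none is given. The same fit was run after subtracting the mean log2 value of 12 pan-myeloid genes from each library. The code was tested on simulated data. Replicates of a group differed by more than sampling noise in all 48 pairs (chi-square per degree of freedom 5.86 to 130). In 13 of 36 comparisons of 2 groups all 3 pairs of libraries with the same number deviated together (correlation over 0.1), without a label that says what the number marks.

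All members, 9 ligands and partners, the count and median of each other list and up to 3 called genes of it, and the 3 genes most like each member by Pearson correlation were named. The members and lists were chosen with earlier results of these data known. Alternatives were other pseudocounts, filters, scalings, weights, samples and a replicate block. Intervals and limits from reads cover counting error only.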

Additional observations from a re-analysis of the deposited data

Results flagged for a closer look

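The difference made by Amlexanox in Sall1 was another one in Tat-Cocaine cultures than in cultures without Tat and cocaine. The interaction was 0.83 on the log2 scale (SE 0.246, limma FDR 0.0308), with -0.52 for Amlexanox against Control and 0.31 for Tat-Cocaine-Amlexanox against Tat-Cocaine. Sall1 was below 50 CPM in 2 of 3 Amlexanox libraries and in 2 of 3 Tat-Cocaine libraries. Leaving out any 1 of 9 of the 12 libraries ended the call. Sall1 varied with astrocyte markers within groups (r 0.86). In the same interaction 5 of 10 astrocyte markers were called higher and none lower (median 0.82, against 0.0045 over all genes), and their part in the result was not tested.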

How the results depend on the processing

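With 3 libraries a group, most calls on single members rested on individual libraries. In the results on single members, 6371 kept direction and side of the threshold under an alternative, 145 gained the call, 157 lost it, 39 changed direction with a call in 1 of the fits or both, and 440 changed sign with a call in neither. The causes were not tested. The share of all genes called was counted for the scale relative to pan-myeloid genes and for no other alternative. Under the other alternatives the numbers of called members therefore cannot be set beside such a share. The alternatives for the pairs of compounds (their values relative to pan-myeloid genes included), the reference of Spi1, Irf8 and Ikzf1 and the single reference genes were chosen after seeing the data. Other pseudocounts (0.1 and 1), a filter at 2 CPM, plain CPM, median-ratio scaling and quantile normalization moved no count of called members by over 1.5 times.

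Library weights raised the number of called members from 3 to 6 for 4OI over 3 backgrounds, from 0 to 4 for 4OI against Control, from 0 to 1 for the interaction of Tat and 4OI, from 1 to 4, 0 to 6 and 0 to 2 for those of Tat-Cocaine with Amlexanox, Senicapoc and Tazemetostat, from 0 to 1 for Senicapoc over 3 backgrounds, from 0 to 5 for Senicapoc against Control, from 4 to 7 for Tat over 5 backgrounds, from 2 to 6 for Tat-4OI against Tat, from 0 to 4 for Tat-Cocaine against Control, and, against Tat-Cocaine, from 0 to 3 with Amlexanox, 0 to 8 with Senicapoc and 3 to 8 with Tazemetostat. Tazemetostat over 3 backgrounds went from 0 to 5. The share of all genes called with the weights was not counted, so these rises are not shown to be particular to the members.

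Fitted to the compared groups alone, 0 members were called for Amlexanox against Control, Tat against Control, Tat-Cocaine-4OI against Tat-Cocaine, Tat-Cocaine-Amlexanox against Tat-Cocaine-4OI and the interaction of Tat-Cocaine and Amlexanox, 1 for Tat-4OI against Tat, Tat-4OI against Tat-Senicapoc and Tat-Cocaine-4OI against Tat-Cocaine-Senicapoc, 4 for Tat-Amlexanox against Tat-4OI, 5 for Tat-Cocaine-Amlexanox against Tat-Cocaine-Tazemetostat, and 6 for Tat-Cocaine-Tazemetostat against Tat-Cocaine. Without a filter 0 were called for Amlexanox against Control and Tat-Cocaine-4OI against Tat-Cocaine, and 1 for Tat-4OI against Tat, Tat-4OI against Tat-Senicapoc and Tat-Cocaine-4OI against Tat-Cocaine-Senicapoc. With 21 libraries of 7 groups, 1 was called for Tat-4OI against Tat and 0 for Tat-Cocaine-4OI against Tat-Cocaine. Without a trend 0 were called for Amlexanox against Control.

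With the replicate block 2 members were called for Amlexanox against Control, Tat-4OI against 4OI, Tat-Cocaine against Control, Tat-Cocaine-Amlexanox against Tat-Cocaine-4OI and Tat-Senicapoc against Senicapoc, 3 for the interaction of Tat-Cocaine and Amlexanox, 1 for Tat-Cocaine-Amlexanox against Tat-Cocaine-Tazemetostat, 6 for Tat-Cocaine-Tazemetostat against Tat-Cocaine, 5 for Tat-Tazemetostat against Tat-4OI and 4 for Tazemetostat over 3 backgrounds. Where libraries of the same number deviated together, the block changed calls only in Tat-Cocaine against Control and in the pair of 4OI and Senicapoc beside Tat-Cocaine.

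Relative to pan-myeloid genes 0 members were called for Amlexanox against Control, the interaction of Tat-Cocaine and Amlexanox, Tat-4OI against Tat, Tat-Cocaine-4OI against Tat-Cocaine, Tat-Cocaine-Tazemetostat against Tat-Cocaine, Tat-4OI against Tat-Senicapoc and Tat-Amlexanox against Tat-4OI, 1 for Tat-Amlexanox against Amlexanox and Tat-Cocaine-4OI against Tat-Cocaine-Senicapoc, 2 for Tat-Cocaine-Tazemetostat against Tat-Cocaine-4OI, 3 for Tat-Tazemetostat against Tazemetostat, 4 for Tat against Control, Tat-4OI against 4OI and Tat-Cocaine against Control, and 5 for Tat-Senicapoc against Senicapoc. Relative to Spi1, Irf8 and Ikzf1 4 were called for Tat against Control and 3 for Tat-Cocaine against Control.

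Where a member was called in 1 of the fits or both, directions changed on these relative scales and under no other alternative. Of the 440 sign changes without a call, 272 came from leaving out a library, 117 and 5 from the relative scales (pan-myeloid genes, and Spi1, Irf8 and Ikzf1) and 36 from library weights. Relative to pan-myeloid genes Csf1r was at -0.88 for Tat over 5 backgrounds, -1.05 for Tat against Control, 0.015 for Tat-4OI against Tat and -0.80 for Tat-Senicapoc against Senicapoc, Cx3cr1 at -0.12 for Tat over 5 backgrounds, Gpr34 at -0.76 and -1.33 for Tat under Amlexanox and Senicapoc, Sall1 at -0.11 and -1.15 there and -0.74 over 5 backgrounds, P2ry12 and P2ry13 at -1.004 and -0.89 under Senicapoc, and for 4OI over 3 backgrounds Olfml3 was at 0.078, P2ry12 at 0.44, P2ry13 at 0.59 and Sall1 at 0.85. For Tat-Cocaine-Tazemetostat against Tat-Cocaine-4OI P2ry12 was at -0.018, P2ry13 at -0.19, Tmem119 at -0.32, Cx3cr1 at -0.22, Gpr34 at -0.044, Sall1 at -2.02 and Olfml3 at -1.32, for Tat-Cocaine-4OI against Tat-Cocaine-Senicapoc P2ry13 at 0.059, Gpr34 at 0.12, Tmem119 at 0.22 and Sall1 at 1.5002, and Sall1 at -0.97 for Tat-Cocaine-Amlexanox against Tat-Cocaine-4OI and -1.27 for Tat-Tazemetostat against Tat-4OI. Relative to Spi1, Irf8 and Ikzf1, 4OI over 3 backgrounds gave 0.042 for Csf1r, 0.41 for Cx3cr1, 0.13 for Olfml3, 0.49 for P2ry12, 0.64 for P2ry13, 0.90 for Sall1 and 0.0020 for Tmem119, Csf1r was at -0.74 for Tat over 5 backgrounds and -0.91 for Tat against Control, and Sall1 at -0.60 over 5 backgrounds.

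Leaving out each library in turn, the number of called members ran from 0 to 2 for Amlexanox against Control, 0 to 1 for Tat against Control, 0 to 2 for Tat-4OI against Tat, 0 to 2 for Tat-4OI against Tat-Senicapoc, 0 to 2 for Tat-Amlexanox against Tat-4OI, 0 to 1 for Tat-Cocaine against Control, 0 to 1 for Tat-Cocaine-4OI against Tat-Cocaine, 1 to 6 for Tat-Cocaine-4OI against Tat-Cocaine-Senicapoc, 0 to 3 for Tat-Cocaine-Amlexanox against Tat-Cocaine-4OI, 0 to 3 for Tat-Cocaine-Tazemetostat against Tat-Cocaine, 1 to 6 for Tat-Cocaine-Tazemetostat against Tat-Cocaine-4OI, 0 to 2 for Tat-Senicapoc against Senicapoc, 0 to 3 for Tat-Tazemetostat against Tat-4OI, 0 to 2 for Tazemetostat over 3 backgrounds, 0 to 1 for the interaction of Tat and Amlexanox and 0 to 3 for that of Tat-Cocaine and Amlexanox.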
